A study of Mus musculus with 2 samples.

Results

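The RNA of 8 genes of the choroid plexus, Ttr, Enpp2, Folr1, Kl, Clic6, Igf2, Otx2 and Slc4a5, was followed through every cell class of 2 hippocampus libraries, in the choroid plexus-like class and outside it. These 8 of the 19059 genes in the files were picked by symbol, and they were picked with readouts of these libraries in view, since the control library held over 10 times as many choroid plexus cells as the tomatidine library. The levels of the 8 genes are therefore given as descriptions. The groups were control mice on standard chow and mice given tomatidine, a steroidal alkaloid of tomato plants, at 0.05% of the chow for 3 months from 21 months of age. All mice were aged C57BL/6 mice of both sexes, and flash-frozen hippocampi of 4 mice were pooled into 1 library per group. Because each group is 1 library, the groups could not be tested against each other, a difference between groups cannot be told apart from a difference between dissections or libraries, and every interval below is a 95% interval that covers counting error only.

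The choroid plexus is an epithelium on a vascular core that floats in the brain ventricles, close to the hippocampus, and it secretes the cerebrospinal fluid. Its cells move ions and bicarbonate across the epithelium, take up folate, and release carrier proteins and growth factors into the fluid. RNA that leaves broken cells during dissociation can be counted in droplets that hold other cells. Such free RNA of an abundant gene can appear as a like low count per droplet in every cell class. In the fixed-cell assay used here, probes bound to transcripts are counted as unique molecular identifiers (UMIs), and a level is given as counts per 1000000 UMIs of a class (CPM) or as UMIs per cell.

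Ttr (ENSMUSG00000061808) lies on chromosome 18 in the mm10 (GRCm38) annotation. Enpp2 (ENSMUSG00000022425) spans 54838901 to 54952892 on the minus strand of chromosome 15, and Folr1 (ENSMUSG00000001827) spans 101858331 to 101870788 on the minus strand of chromosome 7. Igf2 (ENSMUSG00000048583) is also on the minus strand of chromosome 7, from 142650766 to 142666816. Kl (ENSMUSG00000058488) spans 150952607 to 150993817 on the plus strand of chromosome 5, and Clic6 (ENSMUSG00000022949) spans 92485736 to 92541243 on the plus strand of chromosome 16. Otx2 (ENSMUSG00000021848) runs from 48657677 to 48673819 on the minus strand of chromosome 14, and Slc4a5 (ENSMUSG00000068323) from 83219828 to 83304945 on the plus strand of chromosome 6. All 8 genes are annotated as protein coding, and the counts are per gene, so transcripts of one gene cannot be told apart.

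After filtering, 15129 control and 14527 tomatidine cells remained, with median depths of 7078 and 7414 UMIs per cell. Their clusters gave 11 named classes, of which 9 beside the choroid plexus-like class held at least 50 cells in each library. The libraries shared 292 cell barcodes, 262 of them among the cells kept, and 3 choroid plexus-like control cells carried a barcode that was also kept in the tomatidine library. Hippocampal excitatory neurons were the most numerous class, and subcortical neuron-like, fibroblast-like and ependymal-like cells were present beside the hippocampal ones.

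The choroid plexus-like class was 1 cluster, named without the 8 genes, which took no part in clustering or naming. All 18 of its naming markers were raised and 9 of its 10 leading genes were among them, led by Tmem72, Kcnj13 (a potassium channel of this epithelium), F5 and Aqp1 (a water channel). It held 324 control cells, 2.14% of the library (1.92 to 2.38%), and 24 tomatidine cells, 0.165% (0.106 to 0.246%). The control share was 12.96 times the tomatidine share, a log2 ratio of −3.70 (−4.36 to −3.10). The class supplied 1.26% of control UMIs and 0.204% of tomatidine UMIs, and its median depth was 3801.5 and 4497 UMIs per cell. The study named cell types on its own clusters, so its numbers for this class may differ.

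Within the choroid plexus-like cells the 8 genes had similar levels in both libraries. Ttr encodes transthyretin, a carrier of thyroid hormone and retinol in cerebrospinal fluid. It made up 240229 CPM of the control class and 266156 CPM of the tomatidine class (log2 0.15). It was found in 324 of 324 control cells, with a median of 745 UMIs per cell and a range of 8 to 24139. In the tomatidine library 23 of 24 cells carried it, with a median of 681.5 and a highest value of 22573 UMIs.

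The other 7 genes had fewer UMIs than Ttr, although the number of probes may differ by gene, so that counts do not order genes by transcript number. Enpp2, which encodes the secreted enzyme autotaxin that makes lysophosphatidic acid, was at 33487 CPM in control and 28537 CPM in tomatidine cells (log2 −0.23, −0.26 to −0.20). Igf2, a growth factor released into the fluid, was at 3315 and 3936 CPM (log2 0.25), and Kl, whose product Klotho is shed from the epithelium, at 2107 and 2151 CPM (log2 0.03, −0.07 to 0.13). All 3 of these genes encode secreted or shed products, and each differed little between the libraries.

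Folr1, the folate receptor that carries folate across the epithelium, was at 1276 CPM in control and 1617 CPM in tomatidine choroid plexus-like cells (log2 0.34, 0.22 to 0.46). Clic6, an intracellular chloride channel protein, was at 1458 and 1436 CPM, and Slc4a5, a sodium bicarbonate cotransporter of the apical membrane, at 600.5 and 658.5 CPM. Otx2, the homeodomain transcription factor that maintains choroid plexus identity, was at 311.3 and 409.7 CPM and was found in 50.6% and 54.2% of the cells. The log2 ratios of the 8 genes in this class lay between −0.23 (Enpp2) and 0.40 (Otx2), with a median of 0.14 against −0.08 over all genes there. The tomatidine levels rested in part on single cells. Of the 24 cells, the 1 with most UMIs of a gene held from 20.5% (Folr1) to 31.5% (Otx2) of them.

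Outside the choroid plexus-like class Ttr differed by much more. All other control cells together held 81090 Ttr UMIs and all other tomatidine cells 10174, or 397 and 50.7 CPM. The log2 ratio was −2.97 (−3.00 to −2.94), and the gene ranked 5 from the lowest among 14608 genes with at least 100 UMIs outside the class. Per cell, the control library had 5.48 Ttr UMIs and the tomatidine library 0.702. The level outside the class was 0.165% of that inside it for control and 0.0190% for tomatidine.

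Ttr was present in nearly every cell of the control library. A UMI of Ttr was found in 87.7% of the 14805 control cells outside the class and in 23.6% of the 14503 tomatidine cells. Microglia-like cells gave shares of 84.5% and 18.6% at median depths of 3076 and 2855 UMIs. Excitatory neuron-like cells gave 90.2% and 25.2% at median depths of 15606 and 14824. Whether a Ttr UMI in such a cell is expression or free RNA was not tested, so these shares are not read as expression. The few cells with many Ttr UMIs are described apart, and what they are was not tested. With every cell thinned to 1500 UMIs the shares outside the class were 39.0% and 7.02%, after leaving out 1170 control and 1187 tomatidine cells that were shallower. Microglia-like cells then stood at 56.5% and 10.2%, and excitatory neuron-like cells at 25.4% and 4.72%.

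**Figure D1:**
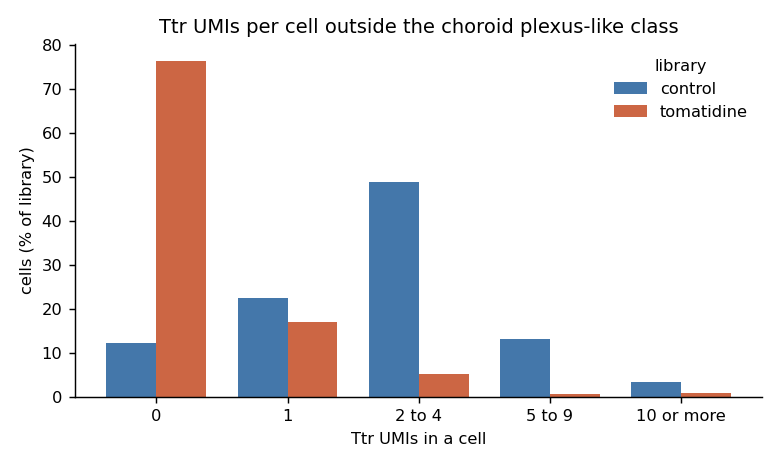
Share of the cells outside the choroid plexus-like class (y axis, percent of each library's 14805 or 14503 cells) by the number of Ttr UMIs in the cell (x axis). Bars are the control library (blue) and the tomatidine library (orange): the control cells center on 2 to 4 UMIs, with a median of 2, and most tomatidine cells have 0.

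The distribution of Ttr among those cells had a narrow center and a long tail. In the control library 1822 cells had 0 Ttr UMIs, 3331 had 1, 7232 had 2 to 4, 1936 had 5 to 9 and 484 had 10 or more. In the tomatidine library the same counts were 11080, 2464, 747, 91 and 121. The 1% of cells with most Ttr held 49.5% of the control UMIs and 54.5% of the tomatidine UMIs, and the highest cells had 6121 and 782. A mean over all cells of a class was thus set in large part by few cells, while the median was 2 UMIs in the control and 0 in the tomatidine library.

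Some of the cells in the tail also carried other choroid plexus genes. Of the 484 control cells with 10 or more Ttr UMIs, 168 had none of the 18 naming markers, 128 had 1, 128 had 2 to 4 and 60 had 5 or more. Of the 121 such tomatidine cells, 51 had none, 26 had 1, 34 had 2 to 4 and 10 had 5 or more. Outside the class, 68 control and 26 tomatidine cells had at least 5 of the markers, and these held 30564 and 2403 of the Ttr UMIs. Cells with none of the markers still had 217 CPM of Ttr in the control library (11123 cells) and 33.4 CPM in the tomatidine library (11524 cells).

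Among all 35 clusters outside the class, Ttr was lower in the tomatidine library in 34, each with its interval below 0. In all 9 classes with at least 50 cells per library it was lower in the tomatidine library, with a median log2 ratio of −3.40. Endothelial-like cells had 7881 UMIs in 334 control cells and 266 UMIs in 455 tomatidine cells, 2144 and 65.1 CPM, the widest difference (log2 −5.04, −5.22 to −4.87). In this class 1 control cell held 6121 of the 7881 UMIs, and the median was 2 UMIs per control cell and 0 per tomatidine cell. Meningeal or perivascular fibroblast-like cells had 2122 and 465 CPM, the narrowest (log2 −2.19, −2.29 to −2.09), and there 1 tomatidine cell held 782 of the 1095 UMIs. Both ends of the range of ratios thus rested on 1 cell each.

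Among glia, microglia-like cells had 1088 and 80.3 CPM of Ttr, astrocyte-like cells 1046 and 98.9 CPM, oligodendrocyte-like cells 608 and 63.6 CPM and oligodendrocyte precursor-like cells 640 and 41.2 CPM. Neurons were lower, with 253 and 39.1 CPM in excitatory neuron-like, 321 and 18.7 CPM in interneuron-like and 153 and 18.1 CPM in subcortical neuron-like cells. The 27 control and 12 tomatidine ependymal-like cells, which line the ventricles, had 622 and 99.3 CPM. Within each of these classes the control interval lay above the tomatidine interval. In the control library the neighbors endothelial-like and fibroblast-like, microglia-like and astrocyte-like, and ependymal-like between both oligodendroglial classes lay within each other's counting error.

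**Figure D2:**
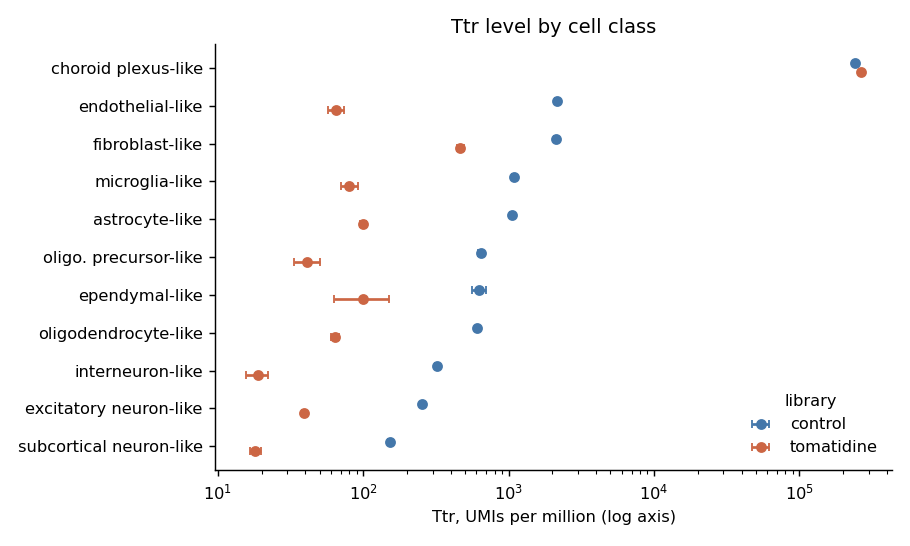
Ttr level (x axis, CPM, log axis) in each named class (y axis) in the control (blue) and tomatidine (orange) library, with 95% Poisson intervals. The choroid plexus-like class is at 240229 and 266156 CPM, while in every other class the control point is to the right of the tomatidine point.

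Over all cells outside the class the control mean ran from 3.795 Ttr UMIs per cell in oligodendrocyte-like to 23.6 in endothelial-like cells, a 6.22-fold range over the 9 classes. To set aside cells with RNA of several choroid plexus genes, cells outside the class with at least 2 naming markers were left out, 785 control and 656 tomatidine cells, among them 128 of 282 control and 237 of 522 tomatidine fibroblast-like cells. Ttr then averaged 2.85 UMIs per control cell and 0.447 per tomatidine cell, or 215 and 33.3 CPM, a log2 ratio of −2.69. In the 9 classes the control mean ran from 2.26 UMIs per cell in microglia-like to 3.70 in fibroblast-like cells, a 1.64-fold range, while the CPM of the same cells ran from 97.1 to 1067, a 10.99-fold range. The tomatidine means ran from 0.264 in oligodendrocyte precursor-like to 0.490 in astrocyte-like cells, a 1.86-fold range. The endothelial-like class no longer stood apart, with 2.86 and 0.345 UMIs per cell and a log2 ratio of −2.74 in place of −5.04, after 32 of its 334 control cells were left out, the cell with 6121 UMIs among them. The fibroblast-like ratio was −2.89 in place of −2.19. Over the 9 classes the log2 ratios now lay between −3.16 and −2.59.

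**Figure D3:**
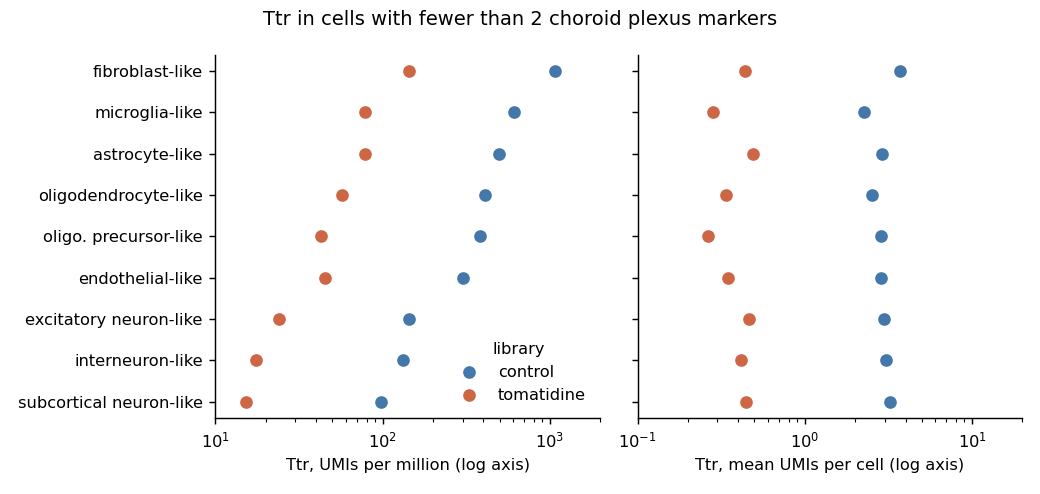
Ttr in cells with fewer than 2 choroid plexus markers, by class (y axis), as CPM (left, log axis) and as mean UMIs per cell (right, log axis), in the control (blue) and tomatidine (orange) library. The CPM of the classes spreads from 97.1 to 1067 in the control library, while the mean per cell stays between 2.26 and 3.70.

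Ttr was also set against depth. When these cells were split by total UMIs at the depth quartiles into 4 bins, the median depth rose 15.3-fold from the shallowest to the deepest bin of the control library, from 2036 to 31054 UMIs. Ttr per cell went from 2.31 to 3.57 UMIs (1.54-fold) and its CPM from 1145 to 98.1. In the tomatidine library Ttr per cell stayed between 0.384 and 0.513 in the 4 bins, while its CPM went from 195 to 13.7. In these cells the CPM was thus highest in the shallowest bin and lowest in the deepest, while the count per cell moved less. With the marker-bearing cells kept in, the count per cell went from 2.66 in the shallowest to 10.1 in the deepest control bin and from 0.415 to 0.884 in the tomatidine bins.

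Folr1 was also lower outside the class. Over all cells there it had 657 control and 145 tomatidine UMIs, 3.22 and 0.722 CPM (log2 −2.15, −2.42 to −1.89). The log2 ratio was −2.71 as a mean over cells of each cell's CPM. With the 9 classes weighted equally, which leaves out ependymal-like cells and the unnamed clusters, it was −3.64. In endothelial-like cells the control library had 53 UMIs and the tomatidine library 0, at least 19.6-fold lower against a floor of 3 UMIs per library. That was 0 of 455 tomatidine cells, which allows a share of up to 0.659% of cells with a UMI. However, 1 control cell held 40 of the 53 UMIs, and without the marker-bearing cells the counts were 6 and 0, at least 2.22-fold lower. Without the cells with 2 or more markers, the control mean was 0.0164 to 0.0325 Folr1 UMIs per cell over the 9 classes, a 1.98-fold range. The classes of the control library were thus again close to each other per cell, while 3 of the 9 had 0 Folr1 UMIs left in the tomatidine library.

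Ependymal-like cells were the exception for Folr1. They had 116 UMIs in 27 control cells and 62 UMIs in 12 tomatidine cells, 228 and 268 CPM (log2 0.23, −0.24 to 0.69), and 66.7% and 83.3% of these cells carried it. These levels were 17.9% and 16.6% of those in the choroid plexus-like class, while Ttr in the same cells was at 0.259% and 0.0373% of its own. Folr1 in ependymal-like cells was therefore not in the proportion to Ttr that the choroid plexus-like class had.

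Slc4a5 was the gene most like Ttr over the 10 other classes of both libraries (Pearson r 0.86 of log2(CPM + 1) over 20 points, which share their 2 libraries and the depth of each class). It had few counts outside the class, 213 control and 68 tomatidine UMIs, or 1.04 and 0.339 CPM (log2 −1.62, −2.04 to −1.22). In oligodendrocyte-like cells there were 45 and 9 UMIs (log2 −1.89, −3.11 to −0.84) and in excitatory neuron-like cells 54 and 11 (log2 −1.91, −3.00 to −0.96). In subcortical neuron-like cells there were 14 and 17 UMIs, a log2 ratio of −0.27 (−1.38 to 0.86) whose interval holds 0. The other genes highest in this likeness were the naming markers Tmem72 (r 0.82), Aqp1 (0.73) and Kcne2 (0.72), and Gh (0.79), which encodes growth hormone of the pituitary. The likeness was taken with the marker-bearing cells kept in. Of the 13 control Slc4a5 UMIs in endothelial-like cells, 1 cell held 11. Without the marker-bearing cells the control library had 2 Slc4a5 UMIs in that class.

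Clic6, Kl and Enpp2 were high in some other classes, and their ratios differed from class to class. Clic6 outside the class was at 6.06 and 3.02 CPM (log2 −1.004, −1.15 to −0.86). An unnamed cluster led by Igfbpl1 and Prdm12 held 387 Clic6 UMIs in 157 control cells and 53 in 30 tomatidine cells, at 103.3 and 101.9 CPM, so this cluster had the same level in both libraries and differed in its number of cells. Ependymal-like cells had 88.5 and 121 CPM of Clic6. In microglia-like cells Clic6 had 24 and 3 UMIs (log2 −2.79, −5.16 to −1.07), in oligodendrocyte-like cells 117 and 32 (log2 −1.44, −2.05 to −0.87), and in subcortical neuron-like cells 44 and 107 (log2 0.73, 0.21 to 1.27).

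Kl is known in hippocampal neurons as well as in the choroid plexus. Outside the class it was at 23.9 and 16.8 CPM (log2 −0.51, −0.57 to −0.45), and a cluster of excitatory neuron-like cells led by Fibcd1 and Spink8 had 73.5 and 69.2 CPM (log2 −0.09, −0.21 to 0.03). Fibroblast-like cells had 130 and 115 CPM (log2 −0.18, −0.45 to 0.10). The widest differences in Kl were in glia, with 26.7 and 7.02 CPM in microglia-like (log2 −1.93, −2.71 to −1.21), 11.95 and 4.77 CPM in oligodendrocyte-like (log2 −1.33) and 19.4 and 7.92 CPM in astrocyte-like cells (log2 −1.29). Interneuron-like cells, with a low level of 5.15 and 5.0003 CPM, had a log2 ratio of −0.04 (−0.73 to 0.63), and endothelial-like cells, with 17.7 and 11.99 CPM, one of −0.56 (−1.13 to −0.0036). However, 1 control endothelial-like cell held 21 of the 65 Kl UMIs of its class. Without the marker-bearing cells the ratio in endothelial-like cells was −0.02 (−0.76 to 0.73).

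Enpp2 is made by oligodendrocytes too, where it was found in 99.7% of control and 99.4% of tomatidine cells at 3566 and 3354 CPM (log2 −0.09, −0.11 to −0.07). These cells held 67444 of the 110841 control Enpp2 UMIs outside the choroid plexus-like class and 47159 of the 80794 tomatidine ones. The whole of the outside cells was at 543 and 403 CPM (log2 −0.43, −0.44 to −0.42). In microglia-like cells Enpp2 was at 285 and 127 CPM (log2 −1.16, −1.34 to −0.99), in endothelial-like cells at 459 and 222 CPM (log2 −1.05) and in astrocyte-like cells at 409 and 213 CPM (log2 −0.94). However, 1 control endothelial-like cell held 547 of the 1686 Enpp2 UMIs of its class. Without the marker-bearing cells the log2 ratios were −0.40 in endothelial-like, −0.74 in microglia-like and −0.69 in astrocyte-like cells. Oligodendrocyte markers were themselves found outside their class at 3.69% of their inside level in the control and 4.03% in the tomatidine library.

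Igf2 and Otx2 were higher outside the class in the tomatidine library over all cells. With equal weight for the 9 classes, which leaves out ependymal-like cells and the unnamed clusters, Otx2 was at log2 −0.10 and Igf2 at 0.096. The unnamed clusters held 537 of the 1154 control and 1679 of the 2291 tomatidine Otx2 UMIs outside the class. Igf2 was at 54.5 and 81.8 CPM (log2 0.59, 0.55 to 0.62), and fibroblast-like cells had 5047 and 5431 CPM, which was 152% and 138% of the level in the choroid plexus-like class. These fibroblast-like cells were 1.86% of the control and 3.59% of the tomatidine cells. Endothelial-like cells had 427 and 391 CPM of Igf2 (log2 −0.13, −0.23 to −0.03), astrocyte-like cells 42.4 and 23.6 CPM (log2 −0.84), and oligodendrocyte precursor-like cells 12.8 and 60.0 CPM (log2 2.23, 1.70 to 2.79). In that class 4 of the 344 tomatidine cells held 76.3% of the 131 Igf2 UMIs, and 316 cells had 0.

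Otx2 outside the class was at 5.65 and 11.4 CPM (log2 1.01, 0.91 to 1.12). An unnamed cluster led by Sox14, Gata3 and Pax7, transcription factors of midbrain and thalamic neurons, had 82.6 CPM in 177 control cells and 109 CPM in 514 tomatidine cells. That cluster held 455 of the 1154 control and 1593 of the 2291 tomatidine Otx2 UMIs outside the class. Subcortical neuron-like cells of a cluster led by Gpr151 and Chrnb4, genes of habenular neurons, had 69.5 and 57.0 CPM, and ependymal-like cells 118 and 138 CPM. In excitatory neuron-like cells, which had the lowest control level but for interneuron-like cells, there were 81 and 54 UMIs, 0.904 and 0.786 CPM (log2 −0.20, −0.73 to 0.31).

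**Figure D4:**
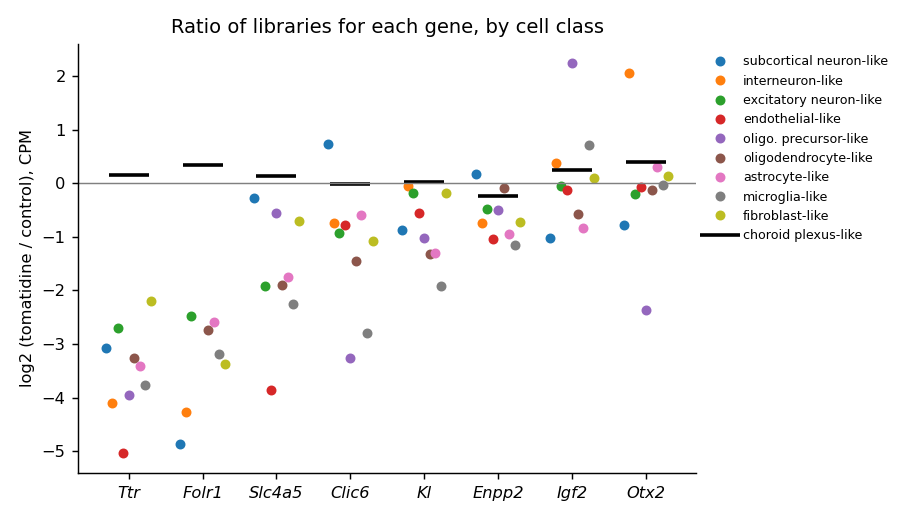
The log2 ratio of tomatidine over control CPM (y axis) for each of the 8 genes (x axis) in the 9 other classes (colored points) and in the choroid plexus-like class (black bars). All Ttr points and all Folr1 points lie below 0 while Igf2 and Otx2 points lie on both sides; Folr1 in endothelial-like and oligodendrocyte precursor-like cells and Slc4a5 in interneuron-like cells had 0 tomatidine UMIs and have no point.

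Counted over all cells outside the class, 4 of the 8 genes (Ttr, Folr1, Slc4a5 and Clic6) were at least 2-fold lower in the tomatidine library, against 1.15% of the 15682 genes with at least 20 UMIs there. All 8 genes passed this minimum, and their median log2 ratio was −0.76 against 0.03 over all genes. Igf2 and Otx2 were in the other direction. Clic6 lay at the threshold, and without the marker-bearing cells its log2 ratio was −0.73 and the count 3. Since the genes were picked with the difference in choroid plexus cells known, nothing is read from this count.

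By class, the members with at least 20 UMIs and a level at least 2-fold lower were 5 of 7 in microglia-like cells (Ttr, Enpp2, Folr1, Kl and Clic6) against 0.667% of all genes, and 5 of 8 in oligodendrocyte-like cells (Ttr, Folr1, Kl, Clic6 and Slc4a5) against 0.79%. Astrocyte-like cells had 4 of 8 (Ttr, Folr1, Kl and Slc4a5) against 1.01%. The vascular classes had 3 of 7 in endothelial-like cells (Ttr, Enpp2 and Folr1) against 0.928% and 3 of 6 in fibroblast-like cells (Ttr, Folr1 and Clic6) against 1.71%. Oligodendrocyte precursor-like cells had 3 of 5 (Ttr, Kl and Clic6) against 1.15%, excitatory neuron-like cells 3 of 8 (Ttr, Folr1 and Slc4a5) against 0.531%, interneuron-like cells 2 of 5 (Ttr and Folr1) against 0.495%, and subcortical neuron-like cells 3 of 8 (Ttr, Folr1 and Igf2) against 2.64%. The members below 20 UMIs in a class were Slc4a5, Otx2, Folr1 or Clic6, so a count over the rest is no measure of all 8. Some of these calls rested on marker-bearing cells. Without such cells Enpp2 was not 2-fold lower in endothelial-like (log2 −0.40) or microglia-like cells (−0.74). Nor was Kl in astrocyte-like (−0.98) or oligodendrocyte precursor-like cells (−0.90), nor Igf2 in subcortical neuron-like cells (−0.59). Clic6 in fibroblast-like cells then had 4 and 9 UMIs (log2 0.47, −1.37 to 2.62).

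The UMIs of each gene were also set against those of Ttr, in the choroid plexus-like class and outside it. The source of the outside UMIs was not tested. In the control choroid plexus-like class there were 5.31 Folr1 UMIs per 1000 Ttr UMIs (5.13 to 5.50), 2.4996 of Slc4a5, 6.07 of Clic6, 8.77 of Kl, 1.30 of Otx2, 13.8 of Igf2 and 139 of Enpp2. The tomatidine class had 6.08 of Folr1, 2.47 of Slc4a5, 5.40 of Clic6, 8.08 of Kl, 1.54 of Otx2, 14.8 of Igf2 and 107 of Enpp2. The intervals of Slc4a5, Kl, Otx2 and Igf2 overlapped between the libraries and those of Folr1, Clic6 and Enpp2 did not, with Enpp2 furthest apart.

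Outside the class, in cells with fewer than 2 naming markers, Folr1 stood nearest to that ratio. There were 7.54 Folr1 UMIs per 1000 Ttr UMIs in the control library (6.71 to 8.44) and 9.69 in the tomatidine library (7.39 to 12.5), with 5.66 to 9.31 over the 9 control classes. Slc4a5 had 3.63 in the control library (3.06 to 4.27) and 8.56 in the tomatidine library (6.40 to 11.2). Both were above the ratio within the class in each library, beyond counting error. With the marker-bearing cells kept in, Slc4a5 was at 2.63 in the control library (2.29 to 3.005), an interval that holds the ratio of the class, and Folr1 at 8.10 (7.49 to 8.75). In the tomatidine library Slc4a5 was then at 6.68 (5.19 to 8.48) and Folr1 at 14.3 (12.01 to 16.8), both above the class. Ependymal-like cells held 116 of the 657 control and 62 of the 145 tomatidine Folr1 UMIs there. Leaving out the marker-bearing cells removed 19 of the 27 control and all 12 tomatidine ependymal-like cells.

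The other 5 genes were further from the ratio. In the control library Clic6 ran from 5.04 per 1000 Ttr UMIs in interneuron-like to 20.1 in subcortical neuron-like cells, and Kl from 26.3 in oligodendrocyte-like to 274 in excitatory neuron-like cells. Enpp2 was at 348 in microglia-like and 8661 in oligodendrocyte-like cells, and Igf2 at 20.99 in oligodendrocyte precursor-like and 3988 in fibroblast-like cells. Otx2 ran from 1.01 in interneuron-like to 84.9 in subcortical neuron-like cells. Each of these ranges, but for the lowest Clic6 and Otx2 values, lay above the choroid plexus-like ratio.

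**Figure D5:**
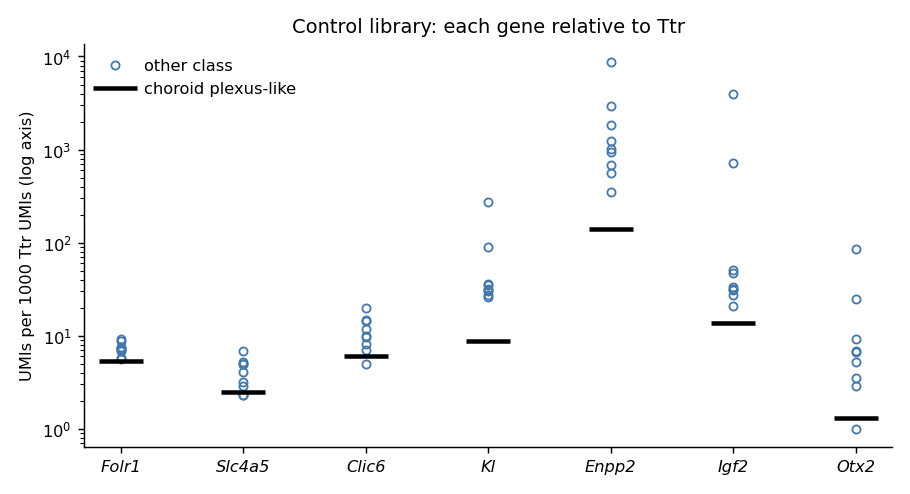
UMIs of each gene per 1000 Ttr UMIs (y axis, log axis) in the control library, in the choroid plexus-like class (black bars) and in the 9 other classes, there in cells with fewer than 2 choroid plexus markers (open circles). Folr1 circles (5.66 to 9.31) sit close to their bar at 5.31, while Enpp2 and Igf2 circles spread to 8661 and 3988.

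Cells that failed the cell filter held a further part of the Ttr RNA. In the control library 489 cells failed, all by low complexity for their depth (a median of 121431 UMIs per cell), and they held 200811 Ttr UMIs. Of these, 12 cells with at least 5 naming markers held 197942 UMIs, and the highest cell had 47449. In these 12 cells the ratios per 1000 Ttr UMIs were 6.31 for Folr1, 2.73 for Slc4a5, 7.60 for Kl and 113 for Enpp2. The 477 control cells that failed with fewer markers had a median of 5 Ttr UMIs and a mean of 6.01, and the 384 such tomatidine cells a median of 0 and a mean of 0.646.

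Other genes of the choroid plexus were described beside the members. Against the same 1.15% of all genes, 11 of the 18 naming markers were at least 2-fold lower outside the class in the tomatidine library, among them Tmem72 (242 and 47 UMIs, log2 −2.34), Aqp1 (246 and 86, log2 −1.49), the tight junction gene Cldn2 (146 and 52, log2 −1.46) and the potassium channel subunit Kcne2 (147 and 47, log2 −1.62). Slc13a4, a sulfate transporter, was in the other direction with 8.85 and 16.8 CPM (log2 0.93). The markers' median log2 ratio was −1.05 against 0.03 over all genes. Summed over the 18 markers, the level outside the class was close in both libraries, 43.0 and 41.4 CPM (log2 −0.05, −0.10 to −0.01). The sum was higher in the tomatidine library in fibroblast-like (1198 and 1474 CPM) and ependymal-like cells. In every other named class outside it was lower there, as in astrocyte-like cells (54.5 and 20.7 CPM).

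A further list of 28 genes, known in this epithelium but used by other cells too, had 3 members at least 2-fold lower, Mfrp (447 and 84 UMIs, log2 −2.39), Tmprss11a (33 and 5, log2 −2.70) and Ecrg4 (1656 and 739, log2 −1.14), with a median of 0.03. The highest of them in choroid plexus-like cells was Igfbp2, a binding protein for insulin-like growth factors, at 2838 and 3739 CPM, and the lowest was Lmx1b, with 0 UMIs in either library. For folate, the carriers Slc46a1 and Slc19a1 were at 101 and 131 CPM in control choroid plexus-like cells, and had log2 ratios of 0.17 and 0.13 outside. For thyroid hormone and retinol, which transthyretin carries, Slco1c1 was at 680, Stra6 at 173 and Rdh5 at 426 CPM in the control class, with log2 ratios outside between −0.17 (Rdh5) and 0.06 (Slco1c1).

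Among ion transport genes beside Slc4a5 and Clic6, Slc4a2 was at 1383 CPM in control choroid plexus-like cells, Slc4a10 at 969, Slc12a2 at 691, Atp2b3 at 1697, Car12 at 748 and Car14 at 409 CPM. Outside the class their log2 ratios lay between −0.37 (Car14) and 0.04 (Slc4a10); each had at least 4128 UMIs in other cells in either library. Beside Otx2, the transcription factors Msx1 and Lmx1a were at 282 and 55.9 CPM in the class, with log2 ratios outside of 0.19 and −0.77 (−1.51 to −0.06).

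Of all genes ranked outside the class, 4 had a lower ratio than Ttr. The pituitary hormone genes Prl (1352 and 49 UMIs, log2 −4.76), Cga (244 and 11, log2 −4.45) and Gh (4144 and 203, log2 −4.33) ranked before Ttr, as did Prdm12 (598 and 60, log2 −3.29), and the control choroid plexus-like class held 1, 0, 5 and 1 UMIs of the 4 genes. After Ttr came Sh3rf2 (log2 −2.79), Impg1 (−2.60), Rspo4 (−2.58), Eomes (−2.51) and Dpep1 (−2.40), of which Sh3rf2 (32 UMIs there) and Impg1 (1 UMI there) had their highest control level in the choroid plexus-like class. Folr1 ranked 15, Slc4a5 34, Clic6 86, Kl 301 and Enpp2 380 of the 14608 genes, and Igf2 and Otx2 ranked 14174 and 14479.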

How the data were processed

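Fixed-RNA probe libraries of flash-frozen hippocampus, 1 per group from 4 pooled mice, were deposited as raw UMI counts per gene and cell barcode, which the authors made with Cell Ranger on mm10 (version 8.0.0 in the submitters' processing notes, 7.1.0 in the matrix header). The control matrix held 15912 cells and 279525565 UMIs, and the tomatidine matrix 15185 cells and 259059908 UMIs. The 8 genes, the gene lists and the comparisons were chosen with earlier results of these data known.

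Cells with at least 500 UMIs, over 250 genes, a complexity (log10 genes over log10 UMIs) over 0.8 and under 20% mitochondrial UMIs were kept. Scrublet (scanpy 1.11.5) called only 0 control and 2 tomatidine doublets by its own threshold, which was judged not to have worked, so the 2% of cells with the highest scores were removed from each library. The libraries were integrated by reciprocal principal components in Seurat 5.3.0 (R 4.3.3) with 2000 variable genes, 30 components and a resolution of 0.8, leaving out the 8 genes, 28 further choroid plexus genes, Xist and Y-linked genes. Of 36 clusters 13 stayed unnamed. A cluster was named after the class with most markers among its 10 leading genes by fold, if that class also had most markers raised at least 2-fold in at least 10% of its cells, with 3 or more raised. Of the marker genes listed, 6 are not in the files used here.

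Levels are class UMIs per 1000000 (CPM). Log2 ratios are tomatidine over control, with exact binomial intervals. Levels have Poisson intervals and shares Clopper-Pearson intervals, all at 95% (scipy 1.17.1), and UMIs of 1 cell are not independent, so they cover counting error only. Genes with at least 20 UMIs in both libraries together were counted, and those with at least 100 outside the class were ranked. The named genes beside the members were the 10 lowest ratios outside the class, the 5 genes most like Ttr over classes, and, of the further list, the highest and lowest in the class and those with a role beside a member, of which 1 is not reported here. Naming markers, cluster-leading genes and the 3 lower genes of the further list are named after their values were seen. Scripts were tested on simulated data. The alternatives were other cell filters, doublet cuts, resolutions, no integration, a gate of 5 markers, cells without 2 or more markers, TMM factors (edgeR 4.0.16), other weights and thinning. Chromosome positions are from the GENCODE annotation of mm10.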

Additional observations from a re-analysis of the deposited data

How the results depend on the processing

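The lower Ttr level outside the choroid plexus-like class kept its direction under all 12 alternatives tried. Its log2 ratio, −2.97 as reported, was −2.78 with all deposited cells clustered anew, −2.72 with both sets of thresholds of the study, −2.89 with the 5% highest doublet scores removed, −2.80 with a gate of 5 markers, −2.69 without cells with 2 or more markers, −3.00 with TMM factors, −2.59 as a mean over cells of each cell's CPM and −3.23 with classes weighted equally. As a percentage of the level inside the class, Ttr outside was 0.128, 0.269, 0.159, 0.198, 0.0896 and 0.398% in the control library with all cells, both thresholds, the doublet scores, the gate, without the marker-bearing cells and as a mean over cells. In the tomatidine library it was 0.0172, 0.0463, 0.0396, 0.0125 and 0.0736% with all cells, both thresholds, the gate, without the marker-bearing cells and as a mean over cells. The median Ttr ratio over classes was −3.55, −3.20, −3.19, −3.26, −2.87 and −2.85 with all cells, both thresholds, the doublet scores, a resolution of 1.5, the gate and without the marker-bearing cells. The ratio of choroid plexus-like shares was −2.93 with the gate, in place of −3.70. The difference in the share of cells with a Ttr UMI, −64.1 points, was −32.0 at 1500 and −40.9 at 3000 UMIs per cell. With a 4-fold threshold 2 genes, Ttr and Folr1, were lower in place of 4. Clic6 was no longer 2-fold lower, leaving 3 genes, with all deposited cells, both thresholds, the gate, without the marker-bearing cells and as UMIs per cell. With classes weighted equally Folr1 went from −2.15 to −3.64 and Igf2 from 0.59 to 0.096. Otx2 turned from 1.01 to −0.10 with classes weighted equally. Equal weights, for Ttr too, cover only the 9 classes. They leave out ependymal-like cells and the unnamed clusters, so they also change which cells are counted. The causes of these changes were not tested. No paired analysis was possible because each group has 1 library, and no library could be left out. At these depths Slc4a5, Folr1, Otx2 and Clic6 had under 20 UMIs in some classes, where intervals were wide.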

Other observations

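Within the unnamed cluster led by Igfbpl1 and Prdm12, Ttr did not have the lower tomatidine level of the other cells. It had 1018 UMIs in 157 control cells and 151 UMIs in 30 tomatidine cells, 272 and 290 CPM, a log2 ratio of 0.09 (−0.16 to 0.34).

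Cells removed for their doublet score held 2462 Ttr UMIs in 294 control cells and 1142 in 271 tomatidine cells, or 362 and 193 CPM.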
